A study of Mus musculus with 16 samples.

Results

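The comparison sets 4 mice examined 6 h after an injection of beta-sitosterol against 4 mice examined 1 h after the same injection, which makes 8 of the 16 samples of the study. The mice were wild-type and of the inbred strain C57BL/6, and received beta-sitosterol at 100 mg/kg into the abdominal cavity. RNA was taken from the hippocampus, and each sample is taken as 1 mouse, from the number in its title. The mice numbered 6 to 9 formed the 1 h group and those numbered 17 to 20 the 6 h group, chosen by the ending of the sample titles. The other 8 samples of the study were mice given vehicle, with 4 taken at 1 h (mice 2 to 5) and 4 at 6 h (mice 11 to 14), and they serve here to show where the interval after beta-sitosterol differs from the same interval after vehicle. Each mouse gave tissue at a single time, and both groups carry the injection, with no uninjected group among the samples analysed here. The sources used here do not give sex, age or the hour of the day at dissection, so time since the injection and hour of the day cannot be told apart.

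Beta-sitosterol is the plant counterpart of cholesterol, from which it differs by an ethyl group on the side chain. Cells handle sterols through SREBP-driven synthesis, receptor uptake and the liver X receptors, which switch on genes of sterol efflux. Handling and injection are themselves stressors: in neurons they induce immediate-early genes within minutes, and the corticosterone released acts through the glucocorticoid receptor on a slower wave of genes in neurons, glia and blood vessels. Genes of the acute-phase response, many of them driven by cytokines through STAT3, follow over hours, with blood vessels of the brain among the first cells to respond.

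Reads counted in genes ranged from 26194012 to 28360647 in the 8 beta-sitosterol libraries. Libraries of the hippocampus carried neuronal transcripts throughout, with the summed level of 8 neuron markers between 12270 and 13408 CPM. CPM are counts scaled to the library size after TMM correction, except in summed marker levels, which are scaled to the library size without that correction. Values per mouse are given below in the order of the mouse numbers. Choroid plexus transcripts varied widely within the 6 h group. Ttr, which codes for the carrier transthyretin, stood at 1357, 2165, 2029.5 and 1034 CPM in the 1 h mice and at 58.7, 686, 67.1 and 3801 CPM in the 6 h mice, so that mice 17 and 19 had little of this tissue and mouse 20 much. The 16 choroid plexus markers summed to 1885 to 4037 CPM at 1 h and to 372 to 6872 CPM at 6 h, and none was without reads. The part of this tissue in the results was not tested beyond values given without the libraries low in Ttr, which leave out mice 17 and 19 at 6 h and vehicle mice 5 and 14, and values from a fit that takes a score of choroid plexus transcripts as a covariate. The strand setting of the counting is not given in the sources used here. Reads of a gene whose exons overlap a gene on the opposite strand are therefore uncertain, and of the genes named below these are Plin4, Sult1a1, Cdkn1a, Il4ra, Cp, Ch25h, Usp18, Dbp, Nr1d1, Arntl, Rbm3, Hmgcs1, Srebf1, Tgm2, Col6a4, Hopx, Cx3cr1, P2ry12, Fgfr3, Tagln, Gphn, Etv6 and mt-Co1.

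Over the 17055 genes tested, edgeR's quasi-likelihood test with Benjamini-Hochberg adjustment called 0 genes different between 6 h and 1 h at an adjusted p of 0.05 (0.00% called, 4 mice per group). The smallest adjusted p was 0.281, shared by 12 genes. An unadjusted p under 0.05 was reached by 1189 genes (6.97%), 512 of them higher at 6 h (3.00%) and 677 lower (3.97%), where 853 would be reached by chance. DESeq2 called 17 genes, 8 higher and 9 lower (0.107% of the genes it gave an adjusted p), and limma called 0. For 900 genes (5.28%) the 6 h mice and the 1 h mice did not overlap, with 445 higher (2.61%) and 455 lower (2.67%). Below, an unadjusted p under 0.05 is used only to count genes of a list against these background shares, and a gene is said to be higher or lower as a description of its values. The lists were chosen with earlier results of these data known. A count above these shares is therefore a description and does not test a list. The number at an unadjusted p under 0.05 was 790 without mouse 19 and 615 when the libraries low in Ttr were dropped. With only the 2 beta-sitosterol groups fitted it was 1405, with 713 of 16494 genes higher and 692 lower.

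The smallest DESeq2 adjusted p values belonged to a pair of neighbouring genes, Plin4 and Lrg1, both higher at 6 h. Plin4 codes for perilipin 4, a protein that coats lipid droplets (chromosome 17, 56100591 to 56109803, minus strand, GRCm38). Its level was 5.11, 6.44, 7.07 and 6.85 CPM in the 1 h mice and 11.7, 23.4, 64.8 and 22.6 CPM in the 6 h mice. The groups did not overlap, and mouse 19 stood highest. The log2 fold change was 2.27 (SE 0.444), a 4.81-fold higher level at 6 h, with an adjusted p of 0.306 by edgeR and of 0.000618 by DESeq2. Without mouse 19 it was 1.59 (SE 0.269). Lrg1 codes for leucine-rich alpha-2-glycoprotein 1, a secreted protein made by inflamed endothelium and by the liver (chromosome 17, 56119678 to 56122001, minus strand). It stood at 0.876, 0.495, 0.566 and 0.5004 CPM at 1 h and at 3.305, 0.801, 2.61 and 2.36 CPM at 6 h. Mouse 18 lay within the range of the 1 h mice and the other 3 lay above it. The log2 fold change was 1.89 (SE 0.328), with an adjusted p of 0.281 by edgeR and of 0.000618 by DESeq2.

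The start regions of these 2 genes are shown because both genes lie on the same strand, separated only by Plin5, and had the smallest DESeq2 adjusted p values. Each window holds 250 bases before and 50 after the RefSeq start site on GRCm38.p6, read 5′ to 3′ on the minus strand, at chr17:56109733-56110032 for Plin4 and chr17:56121897-56122196 for Lrg1, with the letters TATAA in capitals.
Plin4: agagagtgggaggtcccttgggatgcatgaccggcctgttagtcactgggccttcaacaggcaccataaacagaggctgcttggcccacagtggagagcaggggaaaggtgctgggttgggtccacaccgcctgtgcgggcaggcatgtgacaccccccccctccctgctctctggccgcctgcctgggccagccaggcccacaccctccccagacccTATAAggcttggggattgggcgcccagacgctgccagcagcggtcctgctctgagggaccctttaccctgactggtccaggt
Lrg1: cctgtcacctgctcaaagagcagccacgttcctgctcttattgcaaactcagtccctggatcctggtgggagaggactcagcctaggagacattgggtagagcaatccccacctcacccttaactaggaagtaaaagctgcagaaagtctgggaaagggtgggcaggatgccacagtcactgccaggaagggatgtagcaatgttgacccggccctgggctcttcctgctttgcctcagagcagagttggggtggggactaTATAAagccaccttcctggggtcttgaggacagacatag
The first base of TATAA lay at position -32 from the start site in Plin4 and at position 11 in Lrg1, on the strand shown. This motif was chosen after the sequences were seen. On either strand, 25.5% of 27025 RefSeq windows of this length hold it, and 13.4% of the 12367 windows of genes tested. Neither window holds the glucocorticoid receptor half-site AGAACA (19.0% of windows), the E-box CACGTG (7.24%), the cyclic AMP response element TGACGTCA (1.88%) or the D-box letters TTATGTAA or TTACGTAA (1.06%), searched on both strands. Over the windows of genes tested these shares were 12.5%, 9.66%, 3.10% and 0.671%, in the same order. Between the 2 genes lies Plin5, which codes for another perilipin, with 0.832 CPM at 1 h and 1.06 CPM at 6 h (log2 fold change 0.34, SE 0.300). Hdgfl2, whose annotated end overlaps the end of Plin4 on the opposite strand, had 80.5 and 80.6 CPM and a log2 fold change of 0.0010 (SE 0.0626). Sema6b, on the far side of Lrg1, had 0.092 (SE 0.0859), Tnfaip8l1 0.11 (SE 0.104), Ubxn6 -0.012 (SE 0.0533) and Chaf1a -0.022 (SE 0.120). None of these 6 neighbours had a difference beyond 2 standard errors.

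**Figure D1:**
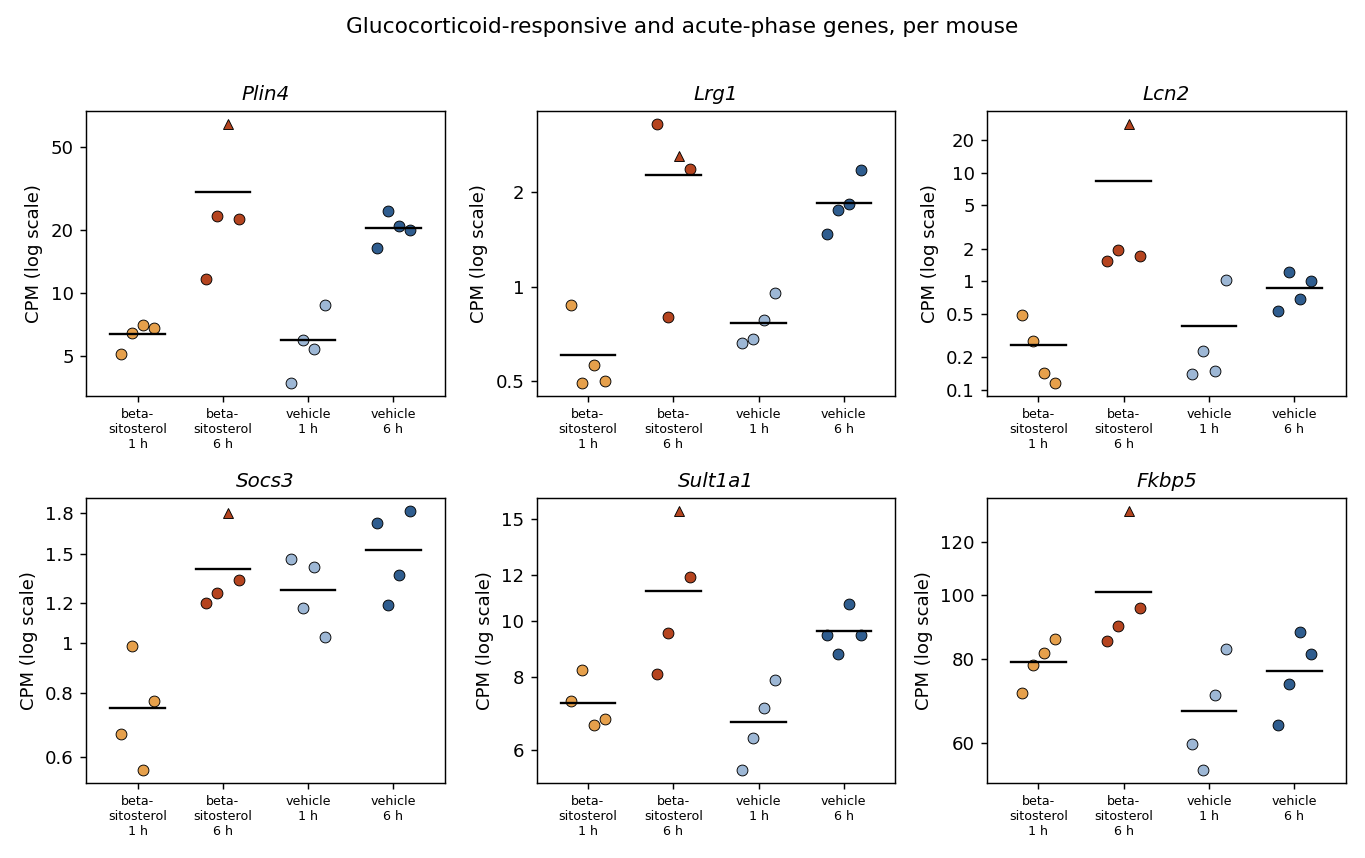
Level of 6 genes in every mouse, in CPM on a log scale, for beta-sitosterol and vehicle at 1 h and 6 h; points are mice, the triangle is mouse 19 and the line is the mean of 4 mice. Plin4 and Lrg1 are higher at 6 h after both injections, and mouse 19 is highest of its group in Plin4, Lcn2, Socs3, Sult1a1 and Fkbp5.

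The glucocorticoid list held 33 genes, of which 29 are known to be induced and 4 code for receptors and their chaperone partners. Of the 33, 10 had an unadjusted p under 0.05 and a higher level at 6 h (512 of 17055 genes, 3.00%, did so) and 0 a lower one. Of the 29 induced genes 9 were higher. Positive log2 fold changes numbered 27 of 33, with a median of 0.11, against 46.8% positive and a median of -0.0080 over all genes. None was called by edgeR. After Plin4, the smallest p was that of Sult1a1, a sulfotransferase. It stood at 7.29, 8.24, 6.61 and 6.78 CPM at 1 h and 8.098, 9.53, 15.5 and 11.9 CPM at 6 h, with mouse 17 inside the range of the 1 h group (log2 fold change 0.64, SE 0.159, edgeR adjusted p = 0.429). Zbtb16, a transcription factor, and Hif3a, a hypoxia-inducible factor, were the 2 others whose groups did not overlap besides Plin4. Zbtb16 stood at 68.6, 69.2, 62.6 and 65.7 CPM and then 79.8, 77.9, 89.3 and 72.5 CPM, and Hif3a at 11.8, 10.54, 10.9 and 11.8 CPM and then 15.5, 15.3, 18.2 and 14.8 CPM. Mfsd2a, the lipid transporter of the blood-brain barrier, averaged 25.4 ± 3.25 CPM at 1 h and 34.9 ± 8.62 CPM at 6 h (SD, n = 4 each), and the kinase gene Map3k6 averaged 4.17 ± 0.508 and 6.596 ± 2.52 CPM. The phagocytic receptor gene Mertk (log2 fold change 0.30), Galnt15 (0.44) and Angptl4 (0.42) completed the 10 with Fkbp5.

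Fkbp5, the co-chaperone that lowers the affinity of the glucocorticoid receptor, was at 71.3, 78.5, 81.7 and 85.8 CPM at 1 h and at 85.2, 89.9, 134 and 95.4 CPM at 6 h. The groups overlapped by mouse 17, and the log2 fold change was 0.35 (SE 0.152, edgeR adjusted p = 0.697) and 0.18 (SE 0.127) without mouse 19. Other classical targets were near no difference: the log2 fold change of Sgk1, a kinase of ion transport, was -0.048 (SE 0.221) and that of Tsc22d3, which codes for the leucine zipper GILZ, was 0.0066 (SE 0.153). Cdkn1a, the cell cycle inhibitor p21, stood at 6.76, 7.64, 8.77 and 8.12 CPM at 1 h and at 4.65, 5.87, 23.3 and 9.72 CPM at 6 h, so that 1 mouse set its log2 fold change of 0.47, which was -0.21 without mouse 19. Mouse 19 weighed on the list as a whole. Without it 3 members were higher and 1 lower at an unadjusted p under 0.05, 21 of 33 were positive and the median was 0.070. The number higher was 6 without mouse 7 and 5 when the libraries low in Ttr were dropped. After vehicle the same list had 5 members higher and 2 lower and a median of 0.11, and no member reached an unadjusted p under 0.05 in the test of the difference between the 2 injections, and at most 2 did under an alternative. The vehicle count was 13 higher with a median of 0.17 without vehicle mouse 5, 3 higher with a median of 0.047 without vehicle mouse 2, and 2 higher and 0 lower without vehicle mouse 3. It was 3 higher without vehicle mouse 14, 1 lower without vehicle mouse 12, 9 higher with the choroid plexus score as a covariate or by limma, and 14 higher without the libraries low in Ttr. Without vehicle mouse 13 the vehicle median was 0.066.

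Of 53 acute-phase and inflammatory genes, 32 had enough reads to be tested, and a gene that passes such a filter through 1 group alone has to differ. Within those 32, 8 were higher at an unadjusted p under 0.05 (against 3.00% of all genes) and 0 lower. The median log2 fold change was 0.10, with 22 positive, and none was called by edgeR. A filter at a mean of at least 5 CPM left 17 members, of which 3 were higher and 0 lower at an unadjusted p under 0.05. Under that filter 512 of 11679 genes were higher. Lcn2 codes for lipocalin 2, an iron-binding acute-phase protein of endothelium and reactive astrocytes (chromosome 2, 32384633 to 32388252). Its level was 0.4904, 0.283, 0.141 and 0.115 CPM at 1 h, which rests on 29 reads over the 4 mice, and 1.53, 1.94, 28.4 and 1.71 CPM at 6 h. The groups did not overlap, and mouse 19 lay far above the other 3. The log2 fold change of 4.98 (SE 1.19, edgeR adjusted p = 0.465) was 2.71 (SE 0.535) without mouse 19. After vehicle Lcn2 stood at 0.139, 0.227, 0.149 and 1.03 CPM at 1 h and at 0.532, 1.23, 0.681 and 1.01 CPM at 6 h, with a log2 fold change of 1.14 (SE 1.35), and the difference between the injections had an edgeR adjusted p of 1.00.

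By role, 1 of 12 transcription factors and feedback genes and 2 of 7 receptors were higher at an unadjusted p under 0.05, and 0 of the 3 cytokines and chemokines tested. Socs3, the feedback inhibitor of STAT3 signalling, was at 0.666, 0.99, 0.566 and 0.7699 CPM at 1 h and at 1.198, 1.26, 1.804 and 1.33 CPM at 6 h, without overlap (log2 fold change 0.90, SE 0.215, edgeR adjusted p = 0.429). After vehicle its groups overlapped and the log2 fold change was 0.26. Il4ra, a cytokine receptor subunit, was at 3.75, 3.36, 3.57 and 3.695 CPM and then at 4.39, 4.42, 7.91 and 4.61 CPM, and its 4 mice at 6 h lay above the 4 at 1 h. Osmr, the oncostatin M receptor, averaged 6.39 ± 0.795 and 7.88 ± 1.41 CPM with overlap. Of the acute-phase proteins, Serpina3n, a protease inhibitor of reactive astrocytes, stood at 57.3, 56.5, 59.7 and 63.9 CPM and then at 66.7, 68.5, 80.99 and 70.2 CPM without overlap, and Cp, the copper carrier ceruloplasmin, averaged 15.4 ± 2.11 and 20.8 ± 4.67 CPM (SD, n = 4 each). Ch25h, which makes the sterol 25-hydroxycholesterol, was at 0.4204, 0.495, 0.318 and 0.539 CPM and then at 1.16, 0.686, 0.768 and 0.762 CPM. Without the libraries low in Ttr, 5 of the 32 were higher at an unadjusted p under 0.05. After vehicle 3 of the 32 were higher and 2 lower at that p, against 5.02% and 5.58% of all genes. There 19 were positive and 13 negative, with a median of 0.051, which was -0.0035 without vehicle mouse 13.

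Of 22 interferon-response genes, 19 had a lower mean at 6 h, with a median log2 fold change of -0.25 against -0.0080 over all genes. At an unadjusted p under 0.05, 7 were lower (against 3.97% of all genes) and 0 higher, none was called by edgeR, and for none of the 22 did the groups stay apart. Ifit1, which binds viral RNA, stood at 3.96, 3.501, 3.96 and 2.27 CPM at 1 h and at 2.43, 1.296, 1.57 and 2.67 CPM at 6 h (log2 fold change -0.78, SE 0.287, edgeR adjusted p = 0.644). Gbp3, a guanylate-binding protein, was at 4.69, 5.304, 6.43 and 5.505 CPM and then at 4.68, 3.16, 2.92 and 4.802 CPM (log2 fold change -0.49, SE 0.162, edgeR adjusted p = 0.625). In both genes mice 18 and 19 were lowest, and in Ifit1 mice 17 and 20 lay within the range of the 1 h group. Irf9, a subunit of the interferon-activated factor ISGF3, averaged 12.9 ± 1.85 and 10.502 ± 1.28 CPM, and Gbp7 averaged 5.701 ± 0.613 and 4.44 ± 0.713 CPM. The other 3 were Ifit3, Rsad2 and Usp18, with log2 fold changes of -0.56, -0.68 and -0.64. The count depended on single mice. It was 12 without mouse 20, with a median of -0.45, and 3 without mouse 18, and 1 without the libraries low in Ttr. Without mouse 8 the median was -0.16. A filter at a mean of at least 5 CPM left 9 of the 22, with 3 lower and 0 higher and a median of -0.12. Under that filter 464 of 11679 genes were lower. After vehicle the median was -0.073 and 3 members were lower.

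Immediate-early genes, which neurons switch on within minutes of firing, were close to level over the interval. Of 49, 0 were higher and 2 lower at an unadjusted p under 0.05, and the median log2 fold change was 0.026. The median was -0.013 without mouse 19 and -0.011 without mouse 6. The number lower was 0 without mouse 9 or mouse 17 and 4 without mouse 19, and 3 were higher without mouse 20. The 2 were Fosb, which forms AP-1 with Jun proteins (7.85 ± 1.401 CPM at 1 h and 6.12 ± 0.819 CPM at 6 h, SD, n = 4 each), and Gadd45g (16.2 ± 0.936 and 14.6 ± 0.817 CPM). With only the 2 beta-sitosterol groups fitted, 5 of the 49 were higher and 2 lower at an unadjusted p under 0.05. Arc, which codes for a postsynaptic protein of AMPA receptor traffic, was at 117, 109.9, 119 and 148 CPM at 1 h and at 98.2, 152, 128 and 88.2 CPM at 6 h (chromosome 15, 74669083 to 74672570). The 6 h mice lay on both sides of the 1 h group, with a log2 fold change of -0.081 (SE 0.1901, edgeR adjusted p = 0.949). Fos was at 10.4, 9.87, 9.01 and 12.4 CPM and then at 6.94, 10.98, 9.596 and 6.402 CPM (log2 fold change -0.29, SE 0.214). Egr1, a zinc finger transcription factor, had a log2 fold change of -0.18 (SE 0.169). Npas4, a transcription factor of inhibitory synapse formation, was at 5.46, 6.86, 6.82 and 6.89 CPM at 1 h and at 8.28, 9.72, 7.71 and 7.16 CPM at 6 h. It was the 1 member of the list whose 6 h mice all lay above its 1 h mice, and its edgeR adjusted p was 0.757 (log2 fold change 0.34, SE 0.199). Homer1, a postsynaptic scaffold, was at 105, 106, 106 and 116 CPM and then at 89.2, 99.8, 104 and 99.8 CPM, lower without overlap (log2 fold change -0.14).

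After vehicle, Arc and Fos were lower at 6 h in all 4 mice than in any mouse at 1 h. Arc was at 160.4, 270.3, 204 and 258 CPM at 1 h and at 98.6, 103, 109.5 and 134 CPM at 6 h, without overlap (log2 fold change -1.01, SE 0.191, edgeR adjusted p = 0.137). Fos was at 16.9, 23.7, 13.8 and 15.8 CPM and then at 5.32, 9.53, 8.78 and 9.44 CPM, also without overlap (log2 fold change -1.09, SE 0.211, edgeR adjusted p = 0.137). Of the 49 genes 15 were lower and 3 higher after vehicle at an unadjusted p under 0.05, where 5.58% and 5.02% of all genes were. These numbers were 10 and 6 without vehicle mouse 11 and 12 and 7 without vehicle mouse 5. The difference between the injections was tested directly. It was 0.93 (SE 0.268) for Arc, 0.80 (SE 0.30) for Fos and 0.81 (SE 0.279) for Npas4 on the log2 scale, each with an edgeR adjusted p of 1.00. In that test 11 of the 49 had an unadjusted p under 0.05 with a higher log2 fold change after beta-sitosterol than after vehicle and 1 with a lower one, against 0.956% and 0.962% of all genes. The 11 included Egr2, Nr4a1, Klf4, Ier2, Btg2, Dusp1 and Apold1 besides the 3 above, and the 1 was Dusp2. With single mice left out the number ran from 6 without vehicle mouse 3 to 13 without mouse 20, and it was 7 without mouse 18, mouse 19 or vehicle mouse 11 and 7 without the libraries low in Ttr. Both time points of both injections enter this difference, so the test alone does not say at which time the injections differ. In the values per mouse, Arc and Fos were higher in every vehicle mouse at 1 h than in any beta-sitosterol mouse at 1 h. At 6 h the mice of the injections overlapped in both genes. A difference between the injections at a single time was not tested. Of the 49 genes 37 have a RefSeq promoter window, of which 4 (10.8%) hold the cyclic AMP response element and 7 (18.9%) the E-box, against 3.10% and 9.66% of the windows of genes tested.

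**Figure D2:**
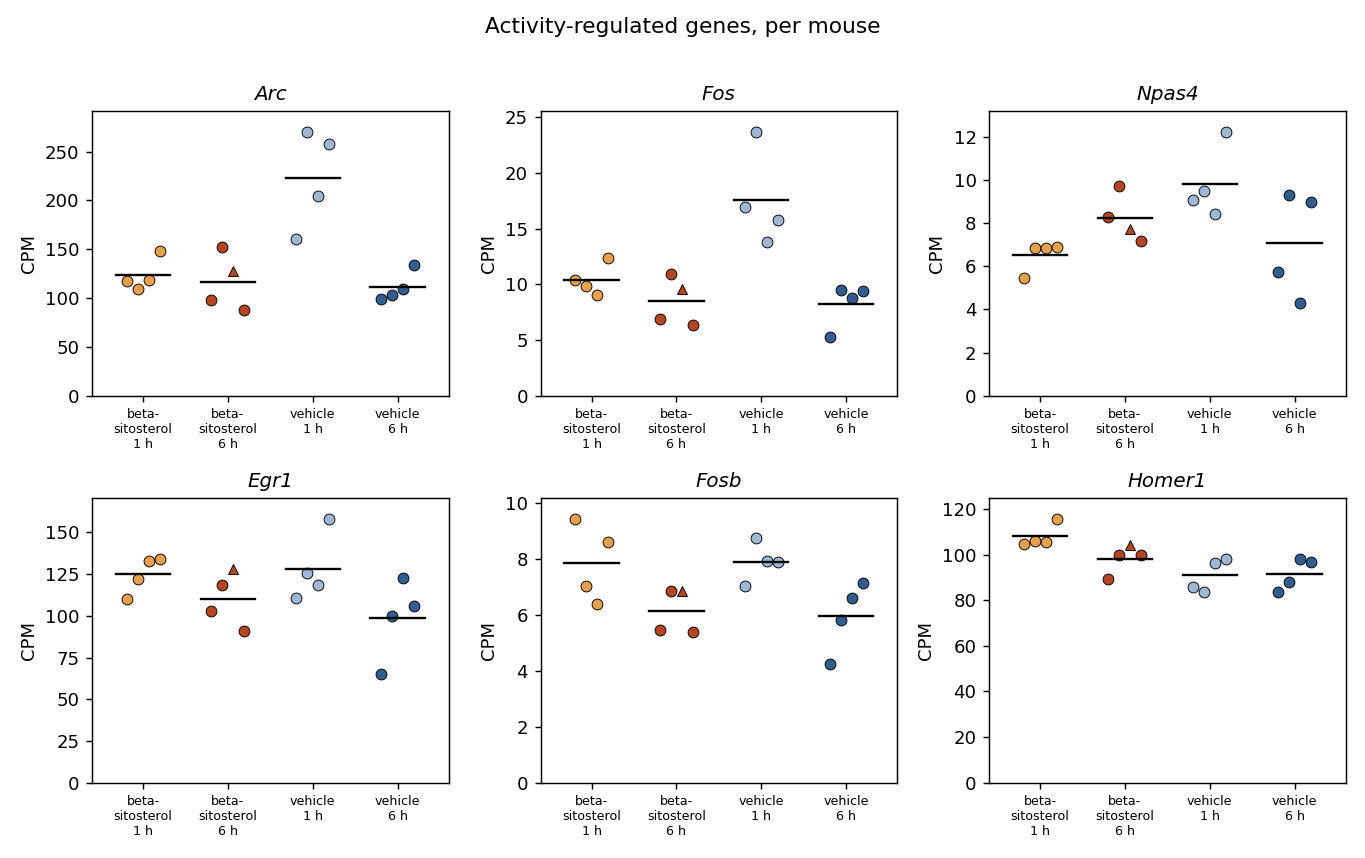
Level of 6 activity-regulated genes in every mouse, in CPM, for beta-sitosterol and vehicle at 1 h and 6 h; points are mice, the triangle is mouse 19 and the line is the mean of 4 mice. Arc and Fos overlap between 1 h and 6 h after beta-sitosterol and do not overlap after vehicle.

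The circadian clock was examined because the hour of the day may differ between the groups. The core loop, in which the activators Clock and Bmal1 drive Per, Cry and Rev-erb repressors, differed little. Bmal1, which the table lists as Arntl, was at 26.8, 28.3, 29.8 and 27.6 CPM at 1 h and at 28, 26.8, 30.2 and 26.4 CPM at 6 h (log2 fold change -0.012, SE 0.0693). Per1, a repressor, had a log2 fold change of -0.027 (SE 0.0845), Nr1d1, which codes for Rev-erb alpha, -0.031 (SE 0.07004) and the output factor Dbp 0.011 (SE 0.113). Over the 28 clock genes the median was -0.018, with 1 higher and 3 lower at an unadjusted p under 0.05. The 3 lower ones did not overlap between the times. Rbm3, a cold-inducible RNA-binding protein, was at 96.9, 99.7, 98.5 and 104 CPM and then at 92.5, 89.7, 74.6 and 88.3 CPM (log2 fold change -0.21, SE 0.0685, edgeR adjusted p = 0.625). Rorb, a nuclear receptor that activates Bmal1, was at 17.3, 18.1, 18.7 and 17.6 CPM at 1 h and at 16.2, 14.8, 17.1 and 13.3 CPM at 6 h. It was lower without overlap after vehicle as well, with a log2 fold change of -0.37 against -0.22 after beta-sitosterol. Of 21 clock genes with a promoter window, 5 hold the E-box, against 9.66% of the windows of genes tested.

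The median differences of the sterol lists between the times were small. Of 27 tested genes of cholesterol synthesis and uptake, 0 were higher and 1 was lower at an unadjusted p under 0.05, and their log2 fold changes ran from -0.14 to 0.12 around a median of -0.020. The lower one was Sc5d, a desaturase late in the pathway, at 52.9, 52.5, 51.5 and 56.8 CPM at 1 h and at 46.7, 47.2, 50.7 and 50.04 CPM at 6 h, lower without overlap (log2 fold change -0.14, SE 0.0475, edgeR adjusted p = 0.634). Hmgcs1, the synthase at the head of the pathway, was at 262, 258, 251 and 262 CPM and then at 239, 239, 246 and 239.8 CPM, also without overlap (log2 fold change -0.10, SE 0.0538, edgeR adjusted p = 0.747). Hsd17b7, a reductase of the same pathway, had 0.11 (SE 0.0573). After vehicle Sc5d and Hmgcs1 had log2 fold changes of -0.17 and -0.17. Of 30 tested genes of the liver X receptors and sterol transport, 0 were higher and 2 lower, with a median of -0.033. The number lower ran from 2 to 4 with a beta-sitosterol mouse left out. It was 6 without vehicle mouse 3 and 5 without vehicle mouse 5, which enter through the shared estimate of spread. With only the 2 beta-sitosterol groups fitted it was 7 of 30. The 2 lower genes over all libraries were Fads2, the delta-6 fatty acid desaturase, at 109, 115, 114 and 121 CPM and then at 104, 102, 93.4 and 99.6 CPM, and Lcat, which esterifies cholesterol in lipoproteins, averaging 30.7 ± 1.52 and 27.3 ± 2.63 CPM. Fads2 did not overlap between the times (log2 fold change -0.20, SE 0.0536, edgeR adjusted p = 0.482), and after vehicle its value was -0.22. With Fads2, 5 of the 30 genes had every 6 h mouse below every 1 h mouse, and 0 had every 6 h mouse above. Over all genes these shares were 2.67% and 2.61%. After vehicle 3 of the 30 lay below without overlap and 0 above. Abca1, the efflux transporter and a direct target of the liver X receptors, had -0.10 (SE 0.07303), and Srebf1, the lipogenic transcription factor, -0.089 (SE 0.0757).

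Several signalling genes, some known from vessels and glia, were lower at 6 h without overlap. They are the lower ones of the 17 DESeq2 calls. S1pr1, a receptor of sphingosine 1-phosphate on endothelium and astrocytes, was at 162, 159.8, 156 and 178 CPM at 1 h and at 144, 137, 133 and 128 CPM at 6 h (log2 fold change -0.28, SE 0.0592, adjusted p 0.281 by edgeR and 0.0201 by DESeq2). Ednrb, the endothelin B receptor of astrocytes, was at 61.9, 62.5, 66.98 and 66.6 CPM and then at 47.6, 50.97, 38 and 52.2 CPM (log2 fold change -0.45, SE 0.0923). Akt2, a kinase of insulin signalling, was at 81.1, 81.9, 80.5 and 84.4 CPM and then at 71.7, 74.1, 70.4 and 69.9 CPM (log2 fold change -0.20, SE 0.0423). Grm3, a metabotropic glutamate receptor, Cbfb, the partner of RUNX factors, and Pcsk6, a proprotein convertase, had -0.30, -0.28 and -0.29, and Gsap and Dapp1 had -0.44 and -0.48. All 8 had an edgeR adjusted p of 0.281. Of the 11 sphingosine 1-phosphate genes, Sgpl1, the lyase that breaks the lipid down, was lower without overlap too (38.4, 39.7, 37.1 and 37.8 CPM and then 35.95, 34.96, 31.5 and 36.4 CPM), and the receptor gene S1pr2 had -0.32. The 6 importins tested lay between -0.080 and 0.043, with Kpna1, an importin alpha, at a log2 fold change of 0.021 (SE 0.0422). The DESeq2 call with the largest decrease was Col6a4, a collagen VI chain, at 6.38, 7.14, 6.26 and 7.54 CPM at 1 h and at 0.908, 2.48, 3.88 and 0.953 CPM at 6 h.

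On the higher side, Tgm2, the cross-linking enzyme transglutaminase 2, was at 13.4, 12.8, 11.6 and 13.7 CPM at 1 h and at 18.8, 14.3, 21.4 and 17.2 CPM at 6 h, without overlap (log2 fold change 0.48, SE 0.102, adjusted p 0.281 by edgeR and 0.0201 by DESeq2). Ly6a, which codes for the endothelial surface protein Sca-1, was at 19.3, 15.98, 15.9 and 18.6 CPM and then at 23.1, 19.6, 32.7 and 23.8 CPM (log2 fold change 0.51, SE 0.116). Another member of its family, Ly6c1, which also marks brain endothelium, was at 19.6, 17.4, 17.6 and 21.98 CPM and then at 23.7, 20.8, 33.8 and 26.6 CPM (log2 fold change 0.45, SE 0.122). The Ly6 genes are close in sequence and can share reads. The 9 endothelial markers together had a median of 0.044 with 1 higher and 1 lower. Rtp1, a receptor transport protein, was at 0.315, 0.601, 0.353 and 0.847 CPM and then at 1.27, 2.402, 2.11 and 1.296 CPM, without overlap (log2 fold change 1.74, SE 0.369), Prodh, the proline dehydrogenase of mitochondria, averaged 28.7 ± 1.58 and 37.2 ± 4.801 CPM, and Podxl, a sialomucin of endothelium, 40.3 ± 2.81 and 52.7 ± 8.22 CPM. The eighth DESeq2 call on this side, AI854703, averaged 20.2 ± 0.922 and 24.4 ± 1.66 CPM.

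**Figure D3:**
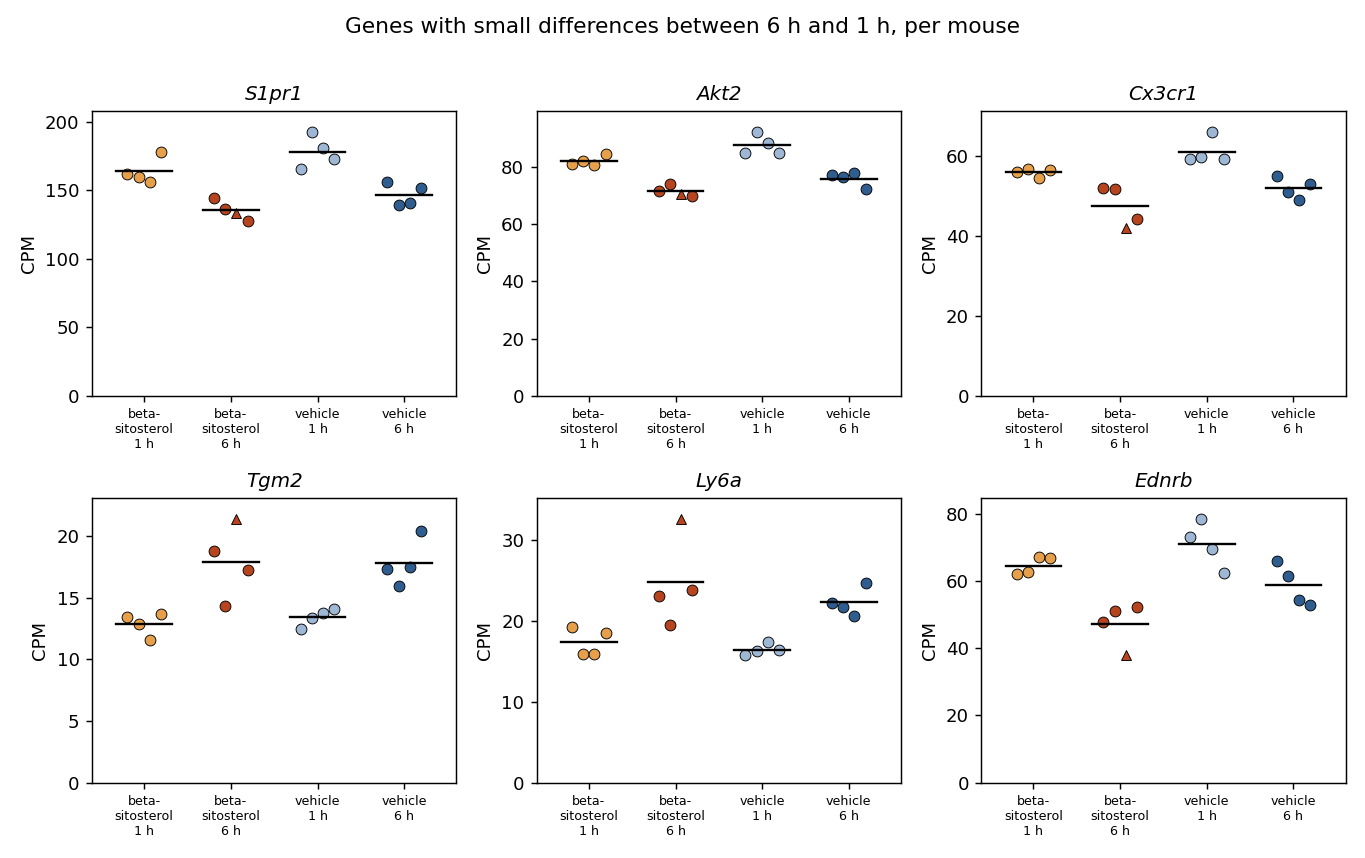
Level of 6 genes in every mouse, in CPM, for beta-sitosterol and vehicle at 1 h and 6 h; points are mice, the triangle is mouse 19 and the line is the mean of 4 mice. S1pr1, Akt2, Cx3cr1, Tgm2 and Ly6a do not overlap between the times after either injection, and Ednrb does not overlap after beta-sitosterol.

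Markers of microglia, the immune cells of the brain, were lower at 6 h. Log2 fold changes were negative for all 9, with a median of -0.16, and 6 had an unadjusted p under 0.05 (against 3.97% of all genes), none called by edgeR. Their summed level was 419 to 454 CPM at 1 h and 356 to 408 CPM at 6 h, without overlap. In whole tissue, fewer cells of a type and less RNA per cell cannot be told apart. Cx3cr1, the fractalkine receptor, was at 56.01, 56.9, 54.6 and 56.5 CPM and then at 52.1, 51.9, 41.99 and 44.3 CPM (log2 fold change -0.24, SE 0.0654, edgeR adjusted p = 0.538). P2ry12, the purinergic receptor of resting microglia, was at 34.7, 38.8, 35.3 and 43.96 CPM and then at 35.4, 32.8, 23.4 and 27.9 CPM, with mouse 17 inside the 1 h range. Others with an unadjusted p under 0.05 included Trem2, C1qa and C1qc. That count was 2 without mouse 9 or mouse 20, and 3 with a covariate for the length trend of each library. After vehicle all 9 were negative as well, with a median of -0.19 and 6 lower.

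Among other cell types, the 10 oligodendrocyte markers were all negative, with a median of -0.23 and 2 lower at an unadjusted p under 0.05, whereas after vehicle the median was 0.0012 with 5 negative. The vehicle median was 0.19 without vehicle mouse 3 and -0.12 without vehicle mouse 5, so its sign turned with 1 mouse. In the test of the difference between the injections 0 of the 10 had an unadjusted p under 0.05, a number that was 8 without vehicle mouse 3 and 1 without vehicle mouse 14. Their summed level was 5841 to 7647 CPM at 1 h and 5068 to 6342 CPM at 6 h, with overlap. Opalin, a myelin glycoprotein, was at 20.6, 20.5, 23.5 and 21.2 CPM at 1 h and at 14.96, 15.9, 10.98 and 15.5 CPM at 6 h (log2 fold change -0.58, SE 0.201, edgeR adjusted p = 0.634), and after vehicle it overlapped, with -0.19. The difference between the injections did not pass for Opalin, with an edgeR adjusted p of 1.00. With single mice left out the number lower ran from 1 to 4, with 4 without mouse 6, vehicle mouse 3 or vehicle mouse 5. It was 5 with only the 2 beta-sitosterol groups fitted. The median was -0.096 with the choroid plexus score as a covariate. Astrocyte markers had a median of -0.10. Aqp4, the water channel of astrocyte endfeet, was at 178, 207, 198 and 198 CPM and then at 177, 162, 162 and 157 CPM, without overlap (log2 fold change -0.25, SE 0.0695, edgeR adjusted p = 0.538), while Fgfr3, a growth factor receptor of astrocytes, lay higher, averaging 119 ± 9.87 and 135 ± 15.96 CPM. In smooth muscle and meningeal cells 3 of 12 markers were higher at an unadjusted p under 0.05, the contractile genes Acta2 (0.30), Myh11 (0.33) and Tagln (0.27). The number was 1 without mouse 7 or mouse 17 or when the libraries low in Ttr were dropped. Of the 12, 9 were positive and 3 negative, from -0.54 to 0.39. Their summed level overlapped, at 339 to 400.5 CPM at 1 h and 297 to 484 CPM at 6 h. Its median was 373 CPM at 1 h and 340 CPM at 6 h. The 16 choroid plexus markers were all negative, with a median of -0.47, and all positive, with a median of 0.40, without the libraries low in Ttr. Ttr is itself 1 of the 16, and after beta-sitosterol only 6 h mice were dropped by its low level. A rise of these values is thus built into that choice.

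For the 13 proteins coded in mitochondrial DNA the median log2 fold change was -0.15, with 12 negative and 2 lower at an unadjusted p under 0.05. The share of reads on the mitochondrial genome was 5.03, 5.11, 4.53 and 5.61% in the 1 h mice and 4.53, 4.30, 4.50 and 4.64% in the 6 h mice. It averaged 4.49 ± 0.143% against 5.07 ± 0.441% (SD, n = 4 each), a difference of -0.578 percentage points, not past the threshold (exact permutation test, two-sided, p = 0.0571, where 0.0286 is the smallest possible with 70 arrangements, and 0.171 after adjustment over 3 measures of the libraries). mt-Co1, a subunit of cytochrome oxidase, was at 12236, 12657, 11339 and 13924 CPM at 1 h and at 11146, 10570.0, 11307 and 11283 CPM at 6 h, without overlap. The 2 lower genes were mt-Atp6, which overlaps its neighbours on the same strand, and mt-Nd3. The number lower ran from 1 to 3 with single mice left out other than mouse 8, and was 6 without that mouse. With only the 2 beta-sitosterol groups fitted, 7 of the 12 genes tested were lower. The median was -0.066 with the length trend as a covariate.

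Of 22 genes of inhibitory GABA signalling 16 were positive with a median of 0.071, and 2 were higher at an unadjusted p under 0.05. The 8 neuron markers had a median of 0.069 with 7 positive and 1 higher at that p, and their part in the GABA values was not tested. Gabbr2, a subunit of the GABA-B receptor, was at 346, 351, 369 and 341 CPM at 1 h and at 392, 398, 443 and 375 CPM at 6 h (log2 fold change 0.19, SE 0.0838, edgeR adjusted p = 0.694). Gphn, the scaffold of inhibitory synapses, was at 83.5, 85.5, 87.3 and 85.2 CPM and then at 89.3, 94.6, 101 and 92.1 CPM (log2 fold change 0.14, SE 0.0595, edgeR adjusted p = 0.6903). Neither overlapped between the times. The number higher was 0 without mouse 19 or with the length trend as a covariate, 1 without mouse 18 and 5 without mouse 8. After vehicle the median was 0.058, with 6 higher and 2 lower. Of 33 chaperone and endoplasmic reticulum stress genes, 1 was higher and 2 lower at an unadjusted p under 0.05. These numbers were 5 and 2 without mouse 17 and 1 and 0 without mouse 6 or mouse 18, and the number higher was 3 by DESeq2. Calr, the calcium-binding chaperone calreticulin, averaged 275 ± 15.04 CPM at 1 h and 306 ± 10.9 CPM at 6 h, and the stress-induced genes Trib3, a pseudokinase, and Ddit3, the transcription factor CHOP, averaged 0.555 ± 0.134 and 19.8 ± 0.956 CPM at 1 h and 0.292 ± 0.113 and 17.9 ± 0.589 CPM at 6 h.

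**Figure D4:**
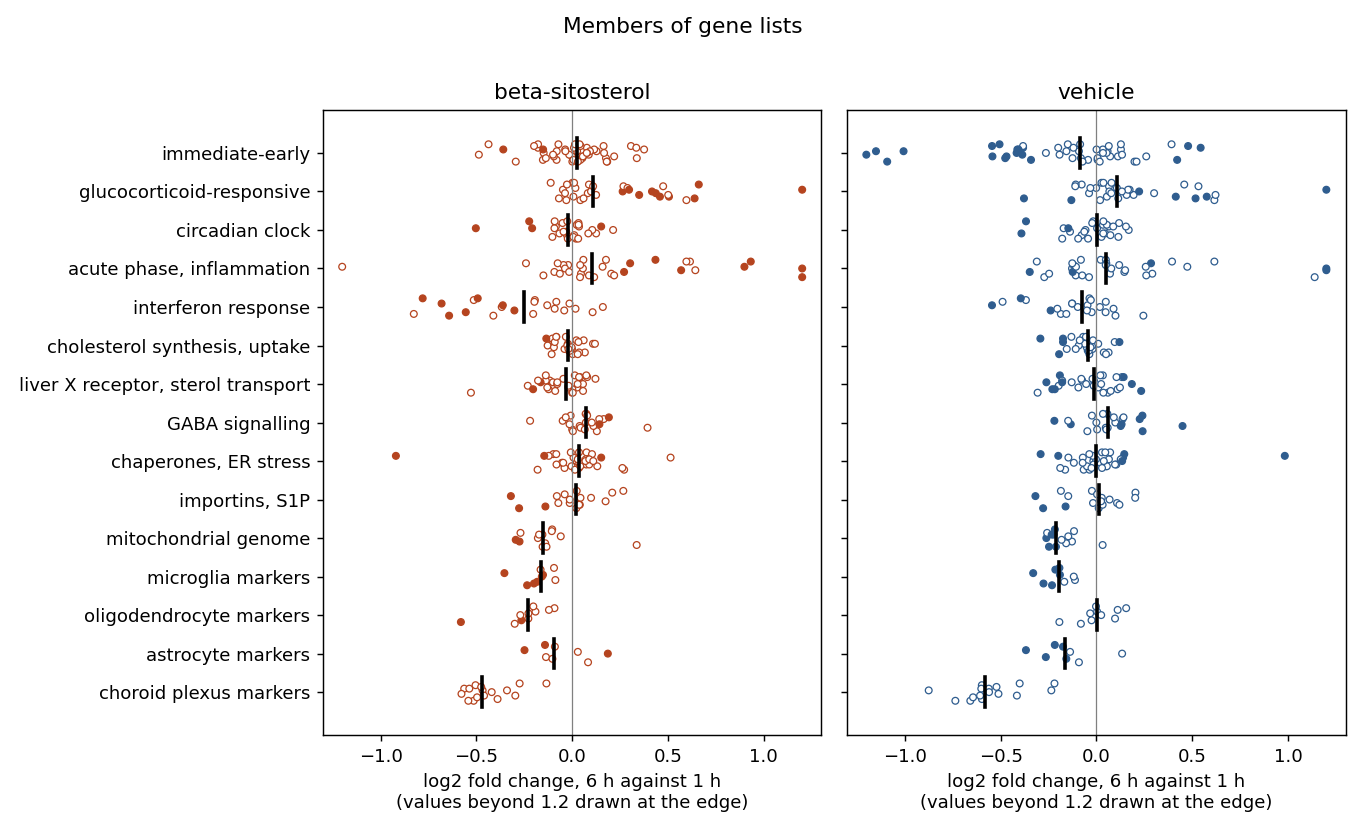
Log2 fold change of 6 h against 1 h for the members of 15 gene lists after beta-sitosterol (left) and vehicle (right); each point is a gene, filled where its unadjusted p was under 0.05 by edgeR, the black bar is the median of the list, and values beyond 1.2 are drawn at 1.2. Glucocorticoid-responsive genes lie mostly to the right of 0 in both panels. Of 32 acute-phase genes, 22 are positive after beta-sitosterol and 19 after vehicle, where the median is 0.051. On the lower side, 2 immediate-early genes are filled after beta-sitosterol and 15 after vehicle.

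The same interval after vehicle shares no library with the one after beta-sitosterol, so a shared direction does not come from shared libraries. The hour of the day may differ between the times in both, and in both the 1 h mice have the lower mouse numbers. The part of these in a shared direction was not tested. Vehicle gave 0 calls by edgeR as well, with 1808 genes at an unadjusted p under 0.05 (10.6%), 89 DESeq2 calls (0.524%) and 0 limma calls. With single mice left out the 1808 ran from 1064 without vehicle mouse 3 to 2982 without vehicle mouse 5, and it was 1136 without vehicle mouse 13. The groups did not overlap for 900 genes after beta-sitosterol and for 820 (4.81%) after vehicle. In 95 genes they did so in the same direction (0.557% of all genes), which is 10.6% of the first set and 11.6% of the second, and in 1 gene, Etv6, in opposite directions. Of the 95, 27 were higher and 68 lower. Of the 900, 795 (88.3%) had the same sign of mean difference after vehicle, against 68.1% of all genes. Across all genes the 2 sets of log2 fold changes had a Pearson r of 0.312 and a Spearman rho of 0.414, a description across genes, which are not independent. Exons of the 27 higher genes had a median total length of 6218.5 bases and those of the 68 lower ones 4013.5 bases, against 4146 bases over all genes tested.

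Among the 27 were Plin4, Tgm2, Ly6a, AI854703, Xdh, the xanthine oxidoreductase of purine breakdown, Htra1, a secreted protease, Jak3, a cytokine receptor kinase, and Notch4, an endothelial Notch receptor. Xdh was at 9.53, 8.49, 7.99 and 6.39 CPM at 1 h and at 9.91, 10.8, 19.96 and 13.9 CPM at 6 h after beta-sitosterol (log2 fold change 0.75) and had 0.61 after vehicle. Plin4 stood at 3.73, 5.98, 5.43 and 8.81 CPM and then at 16.5, 24.8, 21.03 and 20.1 CPM after vehicle, a log2 fold change of 1.78 against 2.27, and the difference was 0.48 (SE 0.624, edgeR adjusted p = 1.00). Lrg1 was at 0.663, 0.682, 0.782 and 0.954 CPM and then at 1.47, 1.75, 1.84 and 2.35 CPM after vehicle, without overlap. Among the 68 were S1pr1, Akt2, Cbfb, Gsap, Dapp1, Aqp4, Cx3cr1, Fads2, Sc5d and Sgpl1, and Hopx, a homeodomain protein of neural progenitors and astrocytes, at 58.8, 50.2, 45.3 and 58.7 CPM and then at 42.7, 40.1, 37.7 and 43.4 CPM (log2 fold change -0.38 and -0.42 after vehicle). S1pr1 had -0.28 and -0.28, and Akt2 -0.20 and -0.21. They also held the ribosomal protein genes Rpl14, Rpl19, Rpl13a and Rps14, with -0.19, -0.19, -0.19 and -0.20 after beta-sitosterol, and Cox7c and Atp5e, small nuclear-coded subunits of oxidative phosphorylation, with -0.24 and -0.23. Ribosomal protein genes have many near-identical pseudogenes, which can take some of their reads. All genes named from the 95 were picked after their values were seen.

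**Figure D5:**
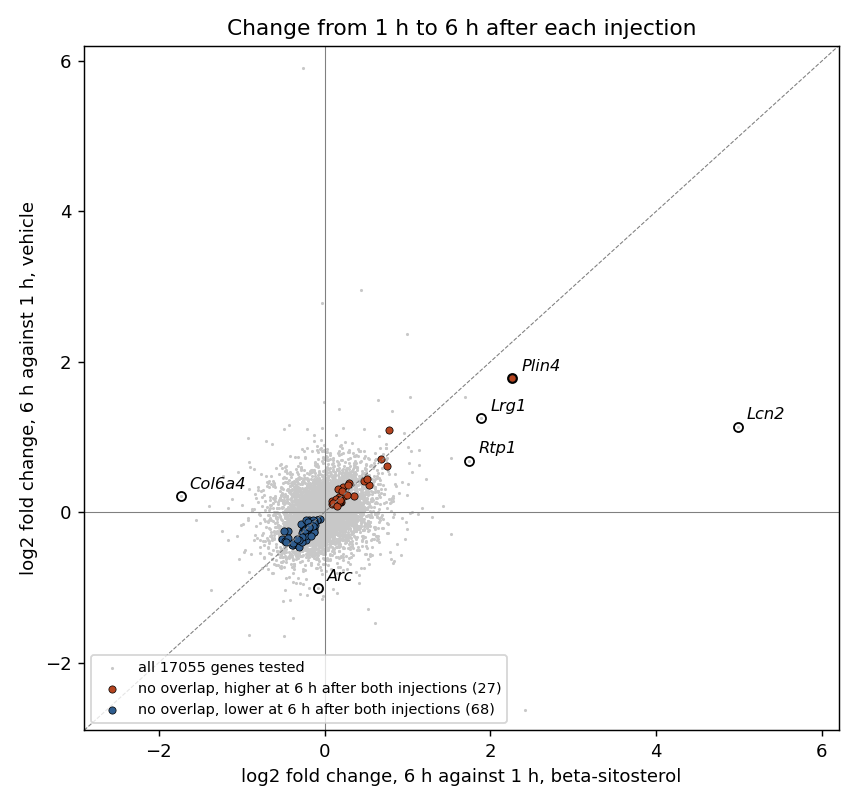
Log2 fold change of 6 h against 1 h after beta-sitosterol (horizontal) against that after vehicle (vertical) for all 17055 genes tested; coloured points are the 95 genes whose groups did not overlap in the same direction after both injections, circled points are labelled genes and the dashed line marks equal values. Plin4 and Lrg1 are high on both axes, Lcn2 and Rtp1 are higher on the horizontal axis than on the vertical one, and Arc is near 0 on the horizontal axis and low on the vertical one.

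The test of the difference between the 2 intervals called 0 genes by edgeR, with 327 at an unadjusted p under 0.05 (1.92%), 0 by DESeq2 and 0 by limma. The 327 ran from 259 without mouse 19 to 574 without mouse 9 with single mice left out. It was 187 with a mean of at least 5 CPM, 585 with the choroid plexus covariate and 619 with no count filter. The smallest p values with a higher log2 fold change after beta-sitosterol were those of Hhex, a homeobox factor, Etv6, an ETS repressor, and Apold1, an early response gene of endothelium. Hhex was at 1.05, 0.884, 0.9897 and 1.12 CPM at 1 h and at 1.78, 1.41, 1.54 and 1.296 CPM at 6 h after beta-sitosterol and at 1.39, 2.31, 1.94 and 1.76 CPM and then 1.22, 1.402, 1.29 and 1.05 CPM after vehicle, a difference of 1.14 (SE 0.245) on the log2 scale. Etv6 was at 13.7, 12.5, 12.5 and 14.2 CPM and then 14.9, 14.9, 16.1 and 14.3 CPM after beta-sitosterol and at 14.8, 15.6, 14.4 and 14.6 CPM and then 13.5, 12.4, 13.9 and 13.04 CPM after vehicle, apart in opposite directions. Apold1 had a difference of 1.11 (SE 0.287). On the other side stood Olig2, a transcription factor of oligodendrocyte precursors (-0.53, SE 0.133), Trib3 (-1.90, SE 0.515) and Col6a4 (-1.95, SE 0.539). All 6 had an edgeR adjusted p of 1.00.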

How the data were processed

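RNA-seq was made from the hippocampus of 16 mice, 4 in each of 4 groups, from mRNA libraries. The labels do not say more on how the mice were housed or paired, and p-values measure the spread between mice. The authors deposited raw counts of reads per gene, and, as a separate table, a normalized signal, which equals the counts multiplied by 1 factor per library between 0.853 and 1.11. Per the submitters' processing notes, CASAVA 1.8.2, cutadapt, TopHat2 2.0.10, HTSeq 0.6.1p1, DESeq2 1.6.3 and the build GRCm38 were used, while the annotation release is not given in the sources used here. Of 46603 gene IDs in the table, 46091 had a symbol in the annotation used here.

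The deposited counts were fitted with edgeR 4.0.16 in R 4.3.3, with TMM scaling and the robust quasi-likelihood fit, over all 16 libraries with a mean per group (12 residual degrees of freedom). Genes were tested where filterByExpr kept them (a count minimum of 10, which is 0.361 CPM in a library of median size, and a total of 15), which left 17055 genes with 99.9% of the reads. P-values were adjusted over all of them by Benjamini-Hochberg, and differences are log2 fold changes from the same fit. Counts of 3 reads correspond to 0.0959 to 0.121 CPM. Alternatives were DESeq2 1.42.0, limma 3.58.1 on the deposited normalized values with a pseudocount of 1, other scaling and filters, the choroid plexus score as a covariate, leaving out each mouse, and dropping libraries in which Ttr was under 100 CPM. A further alternative fitted only the 2 groups compared. A covariate for each library's trend of counts with exon length was added after seeing the data. No pair of libraries of a group agreed within sampling noise. Only the edgeR fit was tried on simulated counts, drawn with the same spread for every gene and with no outlying mouse. The DESeq2 and limma fits were not.

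The comparison, the gene lists and the genes described were chosen with earlier results of these data known. Genes are named as the 2 members of each functional list with the smallest p, a list of 17 genes given whatever their result, and the 3 per direction with the smallest p in the difference between the injections. The other genes were named after their values were seen, and 2 list members are not reported here. Gene positions are from GENCODE M21 on GRCm38 and promoter windows from RefSeq.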

Additional observations from a re-analysis of the deposited data

Results flagged for a closer look

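In 94 sets of 4 values, each of 1 measure in 1 group of mice, the highest or the lowest mouse was compared with the rest. The measure was its gap to the nearest mouse over the range of the group. The sets share mice and are not independent. Chance gives such a gap in about 1 in 20 sets, so some gaps of this size are to be met by chance among 94. In the 6 h group after beta-sitosterol, Lcn2 stood at 28.4 CPM in the highest mouse, mouse 19, against 1.94 CPM in the next. Ttr reached 3801 CPM in the highest mouse of that group, mouse 20. Per1 was 88.3 CPM in its lowest mouse and Srebf1 49.5 CPM in its lowest, which were mice 20 and 19. Hmgcs1 was 246 CPM in its highest mouse, mouse 19, which still lay below the 1 h group. In the 1 h group, Npas4 was 5.46 CPM in its lowest mouse, mouse 6, against 6.82 CPM in the next.

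Etv6 lay higher at 6 h in all 4 mice after beta-sitosterol and lower in all 4 after vehicle, with a difference of 0.36 on the log2 scale. The test of that difference gave an adjusted p of 1.00 by edgeR over all genes.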

How the results depend on the processing

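No paired analysis was possible because the mouse numbers differ between all 4 groups. The edgeR test gave 0 calls after beta-sitosterol, against 17 by DESeq2 and 2 without the libraries low in Ttr (Plin4 and Lcn2), with 0 to 1 when single mice were left out (Lrg1 without mouse 18). After vehicle it gave 0, against 89 by DESeq2, 2 with the choroid plexus score as a covariate, 9 with no count filter and 7 without the libraries low in Ttr, with 0 to 7 when single mice were left out. The numbers of genes without overlap were 904 to 2211 after beta-sitosterol, 819 to 2230 after vehicle and 104 to 259 after both with 1 mouse left out, and 2319, 2798 and 440 without the libraries low in Ttr, as fewer mice make separation easier. Signs turned for genes near 0, and also for Cdkn1a (0.47) and Ttr (-0.51), and the cause was not tested. Leaving out single mice gave -0.24 to 0.032 for Arc, -0.25 to 0.12 for Sgk1, -0.15 to 0.12 for Tsc22d3, -0.098 to 0.00997 for Per1, -0.097 to 0.12 for Dbp, -0.084 to 0.024 for Nr1d1, -0.054 to 0.021 for Arntl and -0.21 to 0.73 for Cdkn1a. Tsc22d3 was -0.040 with the choroid plexus covariate, -0.0065 with the covariate for length, -0.016 by limma and -0.033 without the libraries low in Ttr. Dbp was -0.041 with the choroid plexus score and -0.014 by limma. Without the libraries low in Ttr, Sgk1 was 0.18. Ttr, the gene by which those libraries were dropped, was then 0.45. With 4 mice per group, 3 where 1 was left out and 2 left at 6 h after beta-sitosterol without the libraries low in Ttr, small differences cannot be separated from the spread between mice.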
